A study of Mus musculus with 13 samples.

Results

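The proteasome genes were examined in EPLMs, early bone marrow progenitors with lymphoid and myeloid potential, of mice that overexpress the B cell coactivator OBF1. The genes were chosen by name. They are the genes of the array whose symbol starts with Psma, Psmb, Psmc, Psmd, Psme, Psmf or Psmg and a digit, without the immunoproteasome genes Psmb8, Psmb9 and Psmb10. The choice gave 46 genes, read by 99 probe sets, of the 18193 genes that have a probe set with 1 gene symbol. Each gene was represented by its brightest probe set over the 6 EPLM arrays, and 20 of the 46 genes have a single one. The name rule also took in Psmc3ip and Psme3ip1, whose proteins interact with a subunit or an activator and are not proteasome subunits themselves. Psme2, the partner of Psme1, was left out, because its probe set carries several symbols.

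The proteasome degrades proteins that have been tagged with ubiquitin. Its 20S core is a barrel of alpha and beta rings with the proteolytic sites of Psmb5, Psmb6 and Psmb7 inside, and the 19S cap binds ubiquitin chains, removes them and unfolds the substrate with a ring of ATPases. Dedicated chaperones put core and cap together, and other activators can dock on the core in place of the cap.

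The mice were 7 weeks old, of the strain combination B6CF1 x C57BL/6, and either WT or BCS littermates. BCS mice carry a human OBF1 cDNA with an HA tag, which yields the nuclear p34 isoform under a murine immunoglobulin heavy chain variable region promoter and the Eμ enhancer. These control elements drive transgenes in the B lineage from its early stages on, and T lineage cells can use them as well. EPLMs were sorted from bone marrow with a gate whose markers included B220+, c-kit+, CD93+ and NK1.1-, and the RNA of each of 3 WT and 3 BCS mice was read on an Affymetrix mouse expression array of its own. Large preB arrays of the same series are not used here.

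Pou2af1, the mouse gene of OBF1, had intensities of 6278, 7250 and 3400 in WT and of 10784, 10858 and 10323 in BCS EPLMs, with a log2 change of 0.99 (SE 0.23, adjusted p = 0.0436 from limma). Whether its mouse probes read the human transgene is not known, so this does not check the labels. The call was lost in 4 of the 6 fits that left out 1 array. By qPCR, the paper reports endogenous OBF1 RNA as undetectable in WT EPLMs and upregulated in BCS EPLMs. The arrays differ from the qPCR in WT EPLMs, where 3400 to 7250 is far above the array median of 20. The reason for this difference was not tested. Of the sorting gate, Kit and Cd93 had log2 changes of -0.01 and 0.29 and did not pass the test, while Ptprc, which encodes B220, fell by 0.40 (adjusted p = 0.0101 from limma). Markers of other cells moved between the genotypes. The summed intensity of 12 plasmacytoid dendritic cell genes was 96695 to 108453 in WT and 44105 to 58129 in BCS EPLMs, and that of 7 genes of committed B cells was 34192 to 60095 in WT and 81790 to 88162 in BCS EPLMs. In the first list 11 of 12 genes fell, and in the second 5 of 7 rose. The sums of other lists leaned on 1 gene each. NK cell genes summed to 8275 to 14923 in WT and 1488 to 4273 in BCS EPLMs. All 10 had a lower mean in BCS, and 2 of 10 fell, but without Klrd1 the sums overlapped, at 1373 to 6812 and 401 to 2968. Of the erythroid and megakaryocytic list 7 of 8 genes had a lower mean in BCS, and 1 fell, Tfrc. Tfrc held most of the sums of 22868 to 23649 in WT and 13056 to 15284 in BCS EPLMs, which were 269 to 3325 and 242 to 245 without it. Of the T cell list 1 of 5 genes rose and 1 fell. Its sums of 559 to 1178 in WT and 1529 to 2005 in BCS EPLMs were carried by Thy1, without which they turned round, to 158 to 437 in WT and 88.8 to 110.1 in BCS EPLMs. No listed marker was at 0 on any array, but values near the array median of 20 carry little signal. Not above that median on every array were 6 of 10 NK cell, 4 of 8 erythroid and megakaryocytic and 3 of 5 T cell genes. The part of these shifts in the results below was not tested. In such bulk samples, fewer cells of a type and less RNA per cell cannot be told apart.

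Most proteasome genes had a slightly higher mean in BCS than in WT EPLMs. The mean was higher in BCS for 40 of 46 genes (87.0%) and lower for 6, where 51.7% of all 18193 genes had a higher mean. The median log2 change was 0.20, a fold of 1.15, against 0.01 over all genes. Of the 46 genes, 6 rose at an adjusted p under 0.05 (limma, adjusted over 45037 probe sets), 0 fell and 40 did not pass. The 6 are 13.0% of the group, and in the same fit 3.15% of all genes rose and 4.68% fell. Among the 9893 genes that were above the array median on every array, 5.01% rose, and 44 of the 46 proteasome genes belong to these brighter genes. Over all 99 probe sets of the group 8 rose and 0 fell, where 2.24% of all probe sets rose and 3.25% fell.

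The changes were small and lay close together. They ranged from -0.45 to 0.67, and 37 of 46 genes (80.4%) lay between 0 and 0.5, compared with 46.1% of all genes. At an unadjusted p under 0.05, 24 genes were higher and 0 lower, where 11.3% of all genes were higher and 11.6% lower. For 22 genes (47.8%) all BCS arrays lay above all WT arrays, which was so for 14.4% of all genes and for 20.6% of the brighter ones. The reverse held for 1 gene, Psme3ip1, against 14.2% of all genes.

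**Figure D1:**
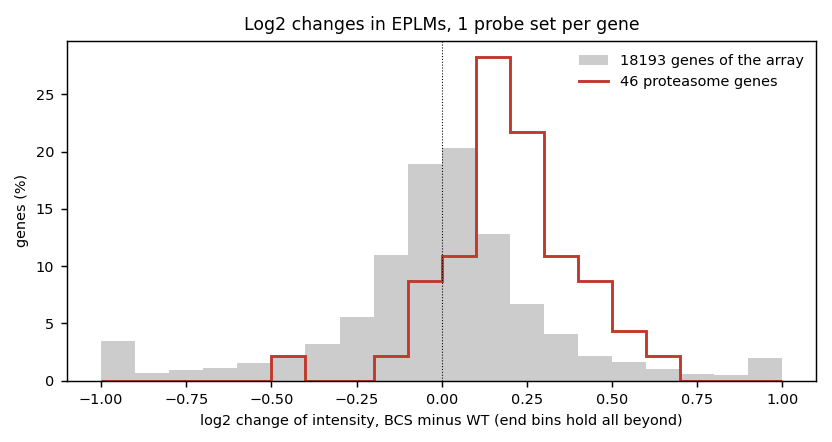
Distribution of the log2 change of intensity (x axis, BCS minus WT, bins of equal width) as a percentage of genes (y axis), for the 46 proteasome genes (red line) and the 18193 genes of the array (grey). The end bins also hold all values beyond them, so their height is no peak. The proteasome genes are shifted to the right of the grey peak at 0, with a median of 0.20 against 0.01.

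The 6 genes that rose belong to both parts of the particle: Psmb6 of the core, the ATPases Psmc3, Psmc5 and Psmc6, and Psmd12 and Psmd13 of the lid of the cap. Since these genes rose in the same comparison, the bases before the start sites of 4 of them are shown, as RefSeq gives them on GRCm38.p6, 250 bases 5′ to 3′ up to the base before the start. Psmc5, whose window held no match to the letters searched, is not printed, and Psmc3 is named only. The capitals mark matches on either strand to the octamer ATGCAAAT, the motif through which OBF1 acts with Oct1 and Oct2, to TGACNNNGC, a core of the antioxidant response element through which Nfe2l1 is known to act on proteasome genes, and to the ETS core CCGGAAG. The pentamer CCAAT was also searched and has no match in these 4 windows.
Psmb6, chr11:70525107-70525356, + strand: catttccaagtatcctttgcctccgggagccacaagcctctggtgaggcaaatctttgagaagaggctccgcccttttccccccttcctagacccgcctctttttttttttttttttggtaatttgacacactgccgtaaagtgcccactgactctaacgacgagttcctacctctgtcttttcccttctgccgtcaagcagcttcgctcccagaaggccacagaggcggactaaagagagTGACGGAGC
Psmc6, chr14:45329574-45329823, + strand: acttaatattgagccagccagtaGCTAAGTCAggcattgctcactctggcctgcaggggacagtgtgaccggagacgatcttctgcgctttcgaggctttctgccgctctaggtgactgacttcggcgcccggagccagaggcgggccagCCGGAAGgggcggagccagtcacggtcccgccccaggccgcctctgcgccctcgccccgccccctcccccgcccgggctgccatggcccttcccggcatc
Psmd12, chr11:107479278-107479527, + strand: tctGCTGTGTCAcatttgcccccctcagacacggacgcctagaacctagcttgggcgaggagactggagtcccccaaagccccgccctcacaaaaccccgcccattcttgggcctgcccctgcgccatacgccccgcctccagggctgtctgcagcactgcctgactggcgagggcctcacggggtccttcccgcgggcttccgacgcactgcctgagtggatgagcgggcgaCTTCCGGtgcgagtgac
Psmd13, chr7:140882144-140882393, + strand: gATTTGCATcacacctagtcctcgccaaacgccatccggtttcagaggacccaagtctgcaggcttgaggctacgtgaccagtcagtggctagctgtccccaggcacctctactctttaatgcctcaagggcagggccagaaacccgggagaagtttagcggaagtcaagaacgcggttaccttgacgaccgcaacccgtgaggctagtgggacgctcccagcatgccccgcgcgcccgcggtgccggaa
In the Psmb6 window, TGACNNNGC lies on the printed strand directly before the start. The windows of Psmc6 and Psmd12 have it on the other strand, near their 5′ end, and each also has an ETS core, 100 bases before the start in Psmc6 and 17 bases in Psmd12. The Psmd13 window opens with an octamer on the other strand, 249 bases before the start. It was the only octamer among 41 windows of the 38 proteasome genes that have an entry, a share of 2.44%, and 1.6% of all 32851 windows hold one. TGACNNNGC was found in 5 of the 41 windows (12.2%) and in 10.2% of all windows. The ETS core was found in 14 (34.1%) and in 6.91% of all, and CCAAT in 15 (36.6%) and in 33.8% of all. None of the motifs overlapped another in the printed windows. Such matches describe the letters and are not binding sites.

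In the core, Psmb6 encodes the beta subunit with caspase-like activity. Its intensities were 5553, 5318 and 5513 in WT and 6457, 7034 and 7421 in BCS EPLMs. All BCS arrays were above all WT arrays, with means of 5461 ± 126 (SD, n = 3) and 6971 ± 485 (SD, n = 3) and a log2 change of 0.35 (SE 0.08, adjusted p = 0.0303 from limma). None of the other 7 beta genes passed. Of the 8 beta genes 7 had a higher mean, 5 had all BCS above all WT arrays, and the median log2 change was 0.13. Psmb5 and Psmb7, which carry the other catalytic sites, had log2 changes of 0.18 and 0.19, and in both the groups did not overlap. Psmb4, the brightest beta gene, was 24955, 23928 and 25096 in WT and 25787, 26996 and 27551 in BCS EPLMs. On this probe set, 1438984_x_at, that is a narrow but complete separation, with a log2 change of 0.12 (SE 0.04, adjusted p = 0.172 from limma). The dimmer Psmb4 probe set 1451205_at overlapped, at 9774, 9290 and 9335 in WT and at 9616, 10948 and 10389 in BCS EPLMs. Its log2 change was also 0.12 (adjusted p = 0.380 from limma). Psmb2 was lower by a log2 of -0.06 (95% interval -0.27 to 0.15). Psmb11, the beta subunit of the thymic cortex, was at 10.4 to 12.5 on all arrays, below the array median of 20.

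The alpha ring forms the gate of the core, and none of its 8 genes passed the test, although 6 were higher at an unadjusted p under 0.05 and the median log2 change was 0.21. Psma3 was at 15157, 14956 and 14744 in WT and at 16282, 18753 and 17267 in BCS EPLMs. Psma1 was at 12085, 10543 and 10666 in WT and at 12690, 13818 and 12905 in BCS EPLMs. In both genes all BCS arrays were higher, with log2 changes of 0.22 (SE 0.06, adjusted p = 0.0722 from limma) and 0.25 (SE 0.07, adjusted p = 0.0842 from limma). Psma6 depended on the probe set. Its brightest one, 1437144_x_at, of a kind whose probes can match other transcripts, overlapped between the genotypes, at 21220, 22373 and 24103 in WT and 23863, 24524 and 26925 in BCS EPLMs, a log2 change of 0.15 (adjusted p = 0.227 from limma). Another, dimmer one, 1416506_at, was at 11562, 11358 and 11733 in WT and at 14147, 15737 and 16100 in BCS EPLMs and rose by 0.41 (SE 0.06, adjusted p = 0.00563 from limma), which was the lowest adjusted p among the 99 probe sets. Psma8, the testis-specific alpha subunit, was dim at 19.7 to 41.7 and had the lowest log2 change, -0.45 (adjusted p = 0.311 from limma).

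Of the 6 genes of the ATPase ring of the cap 3 rose, all 6 had a higher mean, and the median log2 change was 0.26. Psmc5 was at 2763, 2816 and 2586 in WT and at 3811, 3923 and 3393 in BCS EPLMs. Psmc6 was at 7882, 7866 and 8154 in WT and at 9290, 11146 and 10477 in BCS EPLMs. Psmc3 was at 8133, 8118 and 7796 in WT and at 9358, 9463 and 9640 in BCS EPLMs. None of the 3 overlapped between the genotypes. The means were 2722 ± 120 and 3709 ± 280 (SD, n = 3) for Psmc5, with a log2 change of 0.44 (SE 0.09, adjusted p = 0.0282 from limma). For Psmc6 they were 7967 ± 162 and 10304 ± 940 (SD, n = 3), with a log2 change of 0.37 (SE 0.08, adjusted p = 0.0250 from limma). The dimmer Psmc6 probe sets 1417770_s_at and 1417769_at also separated the groups but did not pass. Their log2 changes were 0.25 and 0.37 (adjusted p = 0.115 and 0.238 from limma). Psmc3 was the smallest of the 6 rises, with means of 8016 ± 190 and 9487 ± 143 (SD, n = 3) and a log2 change of 0.24 (SE 0.06, adjusted p = 0.0442 from limma). The brightest ATPase gene, Psmc2, did not pass. Its arrays read 19626, 18197 and 17706 in WT and 19151, 19378 and 18660 in BCS EPLMs, so that the highest array of all was WT, and the log2 change was 0.04 (95% interval -0.07 to 0.16, adjusted p = 0.733 from limma).

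**Figure D2:**
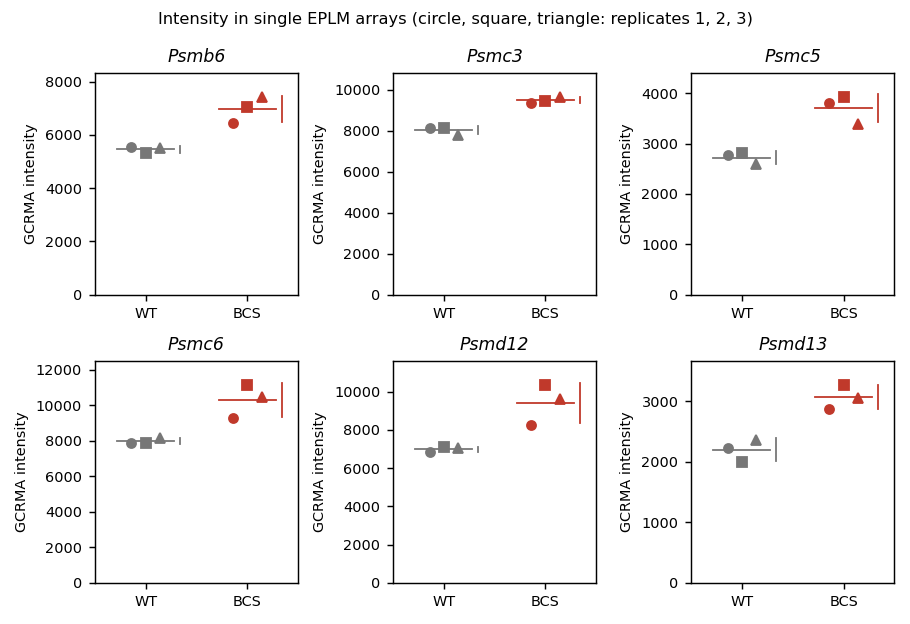
Intensity on each array (y axis, linear scale from 0) of the 6 proteasome genes that rose, in WT (grey) and BCS (red) EPLMs. Symbols are single mice, the horizontal line is the mean and the vertical line spans 1 SD on each side. In every panel the 3 BCS arrays lie above the 3 WT arrays. The SD is larger in BCS than in WT for all genes but Psmc3, and by the widest margin for Psmc6 and Psmd12.

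Of the 11 non-ATPase genes of the cap 2 rose, and all 11 had a higher mean, with a median log2 change of 0.13. Psmd12, a scaffold of the lid, was at 6819, 7088 and 7047 in WT and at 8279, 10357 and 9608 in BCS EPLMs. The lowest BCS array was well above the highest WT array, with a log2 change of 0.42 (SE 0.09, adjusted p = 0.0230 from limma), the lowest adjusted p among the 46 genes. Psmd13, another lid subunit, was at 2237, 1995 and 2367 in WT and at 2875, 3272 and 3060 in BCS EPLMs, a log2 change of 0.48 (SE 0.11, adjusted p = 0.0316 from limma) and the largest of the 6 rises. A dimmer Psmd13 probe set, 1437220_x_at, separated the groups too, at a log2 change of 0.43 (adjusted p = 0.0809 from limma). A further one, 1445729_at, read 129 to 265 in WT and 149 to 205 in BCS EPLMs and had a log2 change of -0.07.

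Psmd14, the deubiquitinase of the lid, was at 9809, 9863 and 9687 in WT and at 11134, 11680 and 10947 in BCS EPLMs. The groups lay apart with little spread, but the log2 change of 0.20 (SE 0.05, adjusted p = 0.0755 from limma) did not pass. Its partner Psmd7 had a larger log2 change of 0.52 (SE 0.21, adjusted p = 0.228 from limma). Here BCS replicate 1, at 879, lay among the WT arrays (976, 822 and 713), while the other BCS arrays were at 1506 and 1280. Psmd6 again differed by probe set. Its brightest was at 13550, 11962 and 12878 in WT and at 13421, 15465 and 15192 in BCS EPLMs, a log2 change of 0.20 (adjusted p = 0.177 from limma), and the other, 1423697_at, was at 5310, 5003 and 4325 in WT and at 6343, 7114 and 6478 in BCS EPLMs and rose by 0.45 (SE 0.09, adjusted p = 0.0267 from limma). The scaffold genes Psmd1 and Psmd2 and the ubiquitin receptor Psmd4 had log2 changes of 0.11, 0.12 and 0.13, and in none of them were the groups apart.

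**Figure D3:**
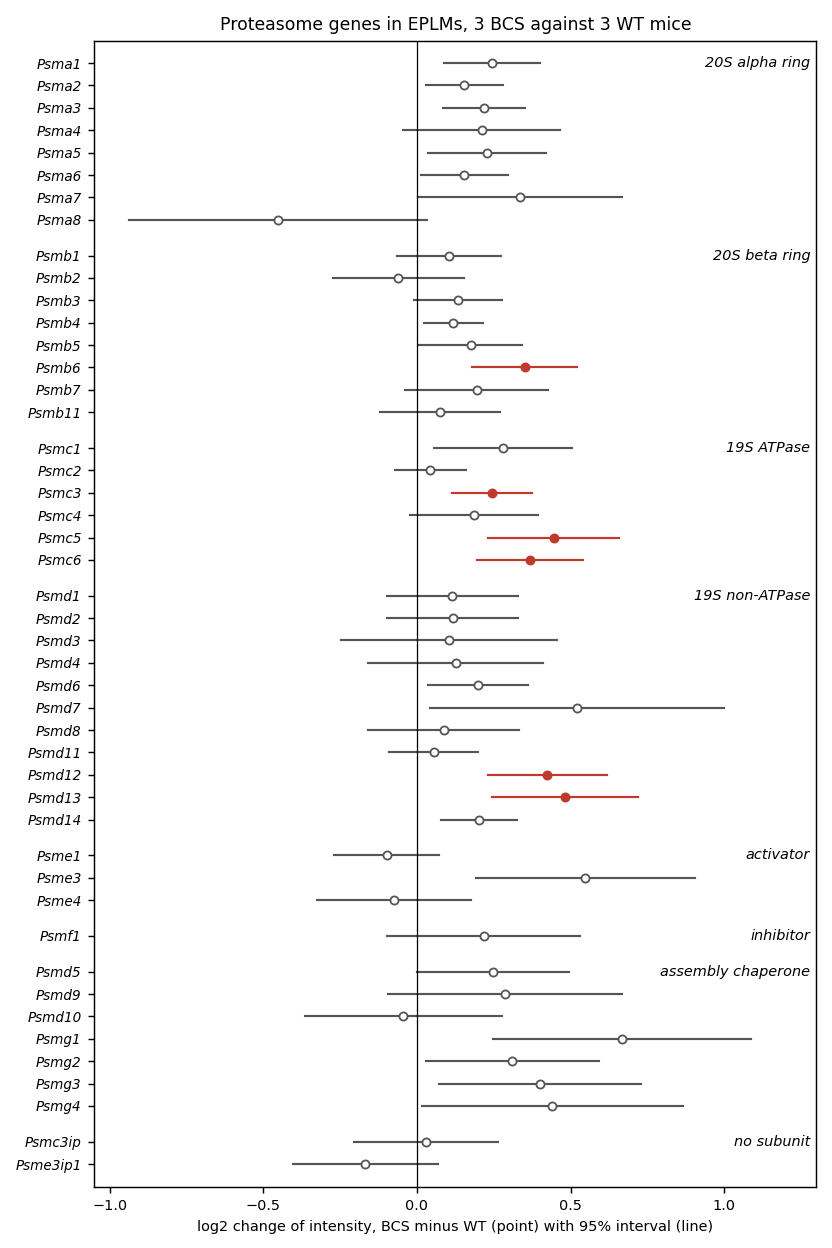
Log2 change of intensity (x axis, BCS minus WT, points) with its 95% interval from limma (lines) for the 46 genes (y axis), ordered by role in the particle. Filled red points are the 6 genes with an adjusted p under 0.05, and 40 of 46 points lie to the right of 0.

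The chaperones that assemble the particle had the highest median of the roles with more than 1 gene, 0.31 over 7 genes. Of these 6 had a higher mean, 5 had all BCS above all WT arrays, and none passed. Psmg1, which with Psmg2 starts the assembly of the alpha ring, had the largest log2 change of all 46 genes, 0.67 (SE 0.19, adjusted p = 0.0804 from limma). It was at 1259, 1120 and 1258 in WT and at 1408, 2230 and 2263 in BCS EPLMs, so BCS replicate 1 stayed close to the WT arrays. Psmg2, at 2482, 2374 and 2694 in WT and at 2621, 3324 and 3477 in BCS EPLMs, had the same order of BCS arrays and a log2 change of 0.31 (adjusted p = 0.222 from limma). Psmg3 and Psmg4, the other pair of core chaperones, had log2 changes of 0.40 and 0.44 (adjusted p = 0.177 and 0.254 from limma). Of the chaperones of the cap, Psmd5 and Psmd9 had log2 changes of 0.25 and 0.29 and Psmd10 of -0.04, and none passed.

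None of the 3 activators passed, 1 had a higher and 2 a lower mean. Psme3, the nuclear activator, was at 1838, 1704 and 1791 in WT and at 2000, 2928 and 2994 in BCS EPLMs. All BCS arrays were higher, 1 of them only slightly, and the log2 change was 0.55 (SE 0.16, adjusted p = 0.0898 from limma). Psme1, the interferon-inducible activator, was at 5215, 5587 and 5344 in WT and at 5084, 5250 and 4759 in BCS EPLMs, overlapping, with a log2 change of -0.10 (95% interval -0.27 to 0.07, adjusted p = 0.569 from limma). Psme4, which caps the core without ATPase activity, had a log2 change of -0.07 (95% interval -0.32 to 0.18). The inhibitor Psmf1 was at 1232, 956 and 967 in WT and at 1282, 1184 and 1180 in BCS EPLMs, a log2 change of 0.22 (adjusted p = 0.476 from limma). The 2 interacting proteins gave log2 changes of 0.03 for Psmc3ip, known for its part in meiotic recombination, and of -0.17 for Psme3ip1 (adjusted p = 0.461 from limma). Psme3ip1 was at 1662, 1754 and 1770 in WT and at 1609, 1467 and 1542 in BCS EPLMs, the reverse of the order seen in 22 genes. Without these 2 genes the median over the other 44 genes was 0.20 and the 6 rises stood as they were.

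The 3 BCS mice differed in how far these genes lay from the WT mean. Relative to each gene's WT mean, the median log2 deviation of the 46 genes was 0.02, -0.03 and -0.01 on WT arrays 1 to 3 and 0.10, 0.25 and 0.22 on BCS arrays 1 to 3. Over all genes the same medians stayed between -0.02 and 0.02. BCS replicate 1 thus lay above the WT arrays but lower than the other BCS arrays. It was above the WT mean in 36 of 46 genes, BCS replicate 2 in 40 and BCS replicate 3 in 37, while WT arrays 1 to 3 were above it in 32, 16 and 21. BCS replicate 1 was the lowest BCS array in 31 genes, BCS replicate 3 in 13 and BCS replicate 2 in 2. In 11 genes both other BCS arrays were above all WT arrays and BCS replicate 1 was not, among them Psma4, Psma5, Psma6, Psma7, Psmc4, Psmd6, Psmd7 and Psmg2. The summed intensity of 12 myeloid genes was 10841 on BCS replicate 1, against 70190 and 47480 on the other BCS arrays and 28995, 103979 and 29917 on WT arrays 1 to 3, and 1 of the 12 (Csf1r) fell. The summed intensity of 9 genes of cycling cells was 132926, 119597 and 120316 on BCS arrays 1 to 3 and 108026 to 123406 in WT, and 1 of the 9, Cdk1, rose. Their part in the differences among the BCS arrays was not tested.

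**Figure D4:**
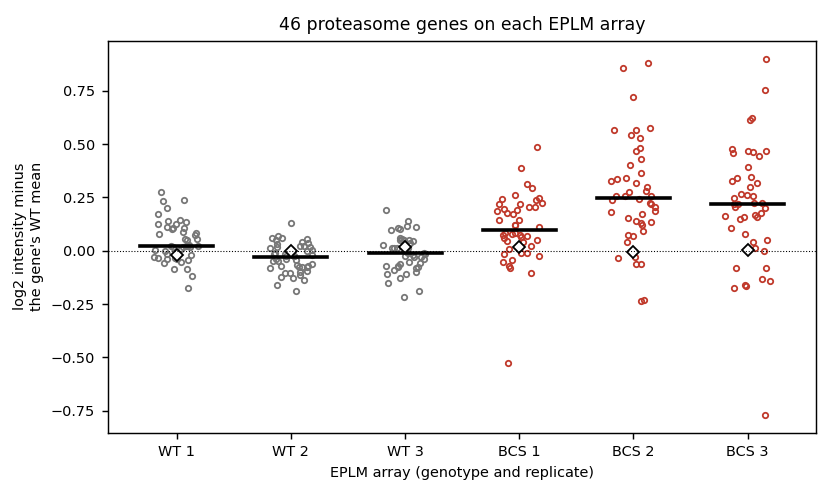
Log2 intensity of each of the 46 genes minus its WT mean (y axis) on the 6 EPLM arrays (x axis), with the median of the 46 genes as a bar and the median of all genes as a white diamond. The bars of the BCS arrays lie at 0.10, 0.25 and 0.22, while the diamonds stay between -0.02 and 0.02.

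The calls rest on few arrays. Without WT array 1, 2 or 3 the fit counted 1, 0 and 0 rises, and without BCS array 1, 2 or 3 it counted 8, 0 and 1, and no gene fell in any of them. Without BCS replicate 1 the 8 were Psma3, Psma7, Psmb6, Psmc6, Psmd12, Psmd13, Psme3 and Psmg1, of which 4 had risen with all arrays, and the median log2 change was 0.21. Across these fits the adjusted p of Psmd12 ran from 0.00642 to 0.0850 and that of Psmc3 from 0.0662 to 0.157, whereas the median log2 change of the 46 genes ran from 0.16 to 0.21. The methods' t-test, adjusted over all probe sets, called 0 of the 46 genes, with 18 higher and 1 lower (Psme3ip1) at an unadjusted p under 0.05, where the same test had 9.86% of all genes higher and 10.1% lower.

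Genes that work with the proteasome, from a list of 38 of which 29 had a probe set with 1 symbol, were tested in the same fit. Of the 29, 2 rose, 0 fell, 22 had a higher and 7 a lower mean, and the median log2 change was 0.09. The 2 rises are 6.90% of the list, near the 5.01% that rose among all genes above the array median on every array, to which 28 of the 29 belong. Rad23b, a shuttle that brings ubiquitinated proteins to the cap, was at 2135, 1966 and 2209 in WT and at 2852, 3440 and 2989 in BCS EPLMs. All BCS arrays were higher, and the log2 change was 0.55 (SE 0.11, adjusted p = 0.0189 from limma). Ngly1, the cytosolic glycanase that is needed to activate the transcription factor Nfe2l1, was at 3905, 3681 and 3836 in WT and at 4818, 5200 and 4938 in BCS EPLMs, again apart, with a log2 change of 0.39 (SE 0.08, adjusted p = 0.0206 from limma). Each of these 2 calls was lost in 5 of the 6 fits that left out 1 array. The Rad23b call also depended on the probe set. With the mean of its probe sets the log2 change was 0.52 (adjusted p = 0.197 from limma). With the probe set of largest spread it was 0.97 (adjusted p = 0.411 from limma). Ngly1 kept its call under both rules.

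Nfe2l1 itself, which raises proteasome genes when proteasome activity is short, was at 287, 233 and 300 in WT and at 215, 206 and 180 in BCS EPLMs. All BCS arrays were lower, but the log2 change of -0.44 (SE 0.18, adjusted p = 0.218 from limma) did not pass. Nfe2l2, its relative, had a log2 change of -0.18 (adjusted p = 0.510 from limma). Of the proteins on the cap, the deubiquitinases Uchl5 and Usp14 each had a log2 change of 0.33 (adjusted p = 0.0868 and 0.236 from limma) with no overlap between the groups. Pomp, the chaperone that completes the core, had a log2 change of -0.08, and none of the 12 genes of assembly, cap and cofactors passed. The immunoproteasome genes Psmb8, Psmb9 and Psmb10, whose products can take the place of the catalytic beta subunits, had log2 changes of 0.15, 0.03 and 0.18 (adjusted p = 0.426, 0.937 and 0.424 from limma). Their 95% intervals were -0.05 to 0.35, -0.21 to 0.26 and -0.06 to 0.42.

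**Figure D5:**
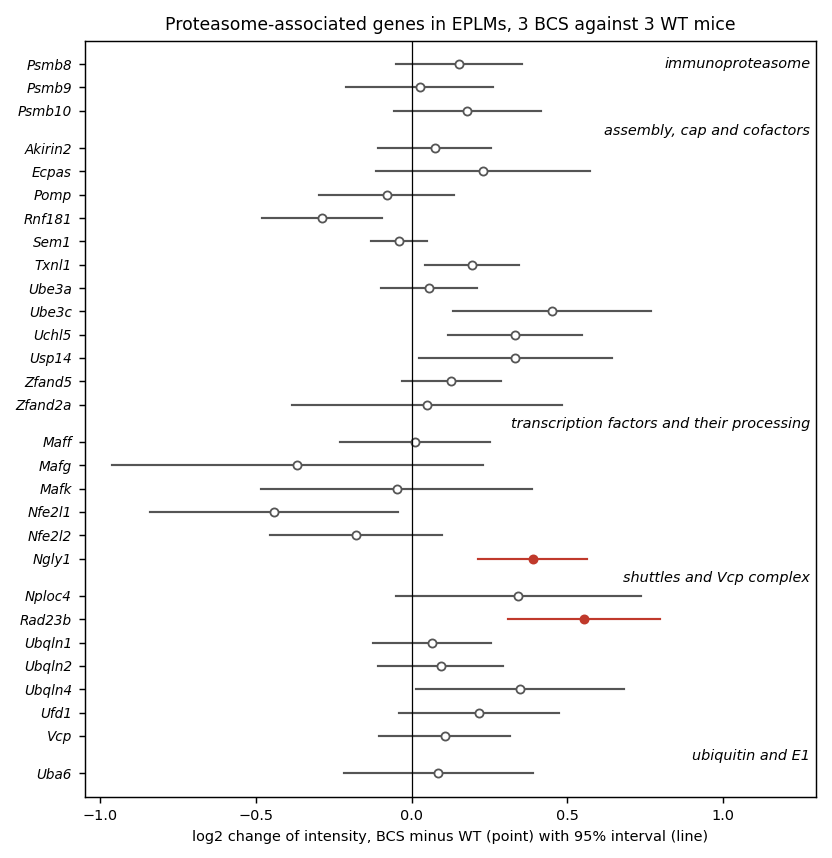
Log2 change of intensity (x axis, BCS minus WT, points) with its 95% interval from limma (lines) for 29 genes that work with the proteasome (y axis), by group. Filled red points are Ngly1 and Rad23b, the 2 genes that rose, while Nfe2l1 lies at -0.44 without passing the test.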

How the data were processed

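Total RNA of sorted cells was labeled and hybridized by the authors, who used GCRMA (version not given in the sources used here) to normalize the arrays. The labels name a 1-cycle labeling protocol, while the methods name another kit. The deposited intensity values are on a linear scale, and the 6 EPLM arrays share a median of 20. GCRMA models background from probe sequence, so values near that median carry little signal. Brightest means the highest mean intensity and served only to choose probe sets and genes, since intensities of different probe sets do not rank their transcripts. For array data, the number of mice limits the precision.

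Intensities were converted to log2(intensity + 1). A linear model without covariates was fitted by limma 3.58.1 under R 4.3.3 (lmFit, eBayes with trend) to 45037 probe sets, without 64 control features, and p was adjusted with Benjamini-Hochberg. Rose or fell means an adjusted p under 0.05. The brightest probe set had the highest mean log2 over the EPLM arrays. The platform annotation gave 34945 probe sets 1 symbol, 932 several and 9160 none. The code was tested on simulated data, where 12 of 100 changes of log2 0.5 and 68 of 100 of log2 1.5 were recovered. A gene that did not pass is not shown to be unchanged. Promoter windows are RefSeq's on GRCm38.p6.

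Named genes were those that passed, the 2 with the smallest p and the brightest of each role, the immunoproteasome genes and associated genes that passed. Others were chosen after their values were seen. The members and lists were chosen with earlier results of these data known. The 7 large preB arrays are not analysed here, and 1 further item is not reported here. Alternatives were other variance models, the methods' t-test, scalings, offsets, filters, probe set rules, thresholds, a replicate block and leaving out each array.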

Additional observations from a re-analysis of the deposited data

How the results depend on the processing

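The number of proteasome genes that rose, 6, was 0 with the methods' t-test on log2 or on linear values, 2 without the intensity trend (Psmc5 and Psmd13), 0 at an adjusted p under 0.01, 0 with medians 2-fold apart and 0 at the study's own thresholds. It was 5 with robust variances, 7 (adding Psmd14) once dim probe sets were removed, and 5 or 6 after quantile normalization, centring or array weighting, with an offset of 16, and with the mean of probe sets or the probe set of largest spread. The last of these probe set rules lost Psmc6 and Psmd13 and added Psmd6, and the mean of probe sets lost Psmd13 and added Psmd6. Leaving out 1 array gave 0 to 8 rises and a median log2 change of 0.16 to 0.21. The number that fell was 0 in every alternative run. Causes were not tested, except that each fit without an array has fewer samples.

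With the replicate number as a block, 3 genes rose (Psmc5, Psmc6 and Psmd12), and the adjusted p was 0.0663 for Psmb6, 0.0783 for Psmd13 and 0.103 for Psmc3 (limma). Arrays of the same number did not deviate together (correlations of -0.00021, 0.068 and 0.058), so the numbers were not read as pairs.

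For the 26 named genes, 374 of 468 values kept direction and side of the threshold, 80 lost the call, 6 gained it and 8 changed sign. Only genes that had passed could lose a call, so all 80 losses fell on them. Of 18 alternatives each, the call was lost in 7 for Psmc5 and in 8 for Psmd12 and Ngly1. It was lost in 9 for Psmc6, Psmb6, Psmd13 and Pou2af1, in 10 for Rad23b and in 11 for Psmc3. The log2 change of Psmc3ip became -0.070 with the mean of probe sets, -0.17 with the probe set of largest spread, -0.053 without WT replicate 2 and -0.04 without BCS replicate 3, and fits without 1 array reached up to 0.083. With the probe set of largest spread, Psmd13 became -0.068 and Psmc2 -0.11. Psmb9 became -0.02 without WT replicate 2 and -0.064 without BCS replicate 1, and reached up to 0.086 without WT replicate 1. Probe sets near the array median, such as those of Psma8 and Psmb11, limit what can be read of their genes.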
